A study of Homo sapiens with 30 samples.

Results

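The genes described here are 9 tight junction genes of the blood-brain barrier, CLDN5, OCLN, MARVELD2, F11R, JAM2, JAM3, ESAM, TJP1 and CGN. They are the rows of the table of read counts that carry these symbols, 9 of 63138 genes. They were not chosen by a threshold on any value, but earlier results of these data were known when they were chosen. RNA was sequenced from hCMEC/D3, a human endothelial line derived from the small vessels of the brain and immortalised, so every value below comes from 1 cell line. The 30 libraries form 10 groups of 3. In the direct groups the cells were kept for 12 h in serum-free medium without a stimulus (Control) or with a stimulus. The TNF group received TNFα at 25 ng/mL and the IL1b group IL-1β at 10 ng/mL. The C5a group received C5a at 50 ng/mL, and the Epinephrine group 200 nM of the hormone. TNFα and IL-1β are inflammatory cytokines, C5a is a fragment of complement and epinephrine is a stress hormone. In the vesicle groups, cells of the same line received extracellular vesicles enriched from the medium of cells stimulated in those ways, and the groups are named with the prefix EV, as in EV-Control and EV-Epinephrine. The labels of the vesicle groups also give 12 h. The amount of vesicles given is not stated in the sources used here.

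Tight junctions seal the space between neighbouring endothelial cells, and in brain vessels they close it to most solutes. Claudins such as CLDN5 form the strands of the junction, and the MARVEL proteins occludin (OCLN) and tricellulin (MARVELD2) lie in the same strands, tricellulin mainly where 3 cells meet. The junctional adhesion molecules F11R (JAM-A), JAM2 and JAM3 and the endothelial adhesion molecule ESAM are immunoglobulin-like proteins beside the strands. The scaffold TJP1 (ZO-1) and cingulin (CGN) lie under the membrane and tie the strands to actin and myosin.

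On GRCh38, CLDN5 lies at chr22:19523024-19527545 on the minus strand, and ESAM at chr11:124752583-124762290 on the minus strand. CGN lies at chr1:151510510-151538692 on the plus strand, and F11R at chr1:160995211-161021348 on the minus strand. OCLN (chr5:69492292-69558104) and MARVELD2 (chr5:69415065-69444330) are neighbours on the plus strand of chromosome 5. TJP1 lies at chr15:29699367-29968865 on the minus strand, JAM3 at chr11:134068925-134152001 and JAM2 at chr21:25639272-25717562, both on the plus strand. RefSeq promoter windows were at hand for 4 of the 9 genes (OCLN, TJP1, MARVELD2 and CGN). They are shown for CGN, TJP1 and MARVELD2, which moved in different ways under the cytokines. CGN fell with both, MARVELD2 rose with IL1b and TJP1 rose with TNF. That TJP1 rise depended on the scaling, as given below. Each sequence shown is the run of up to 250 bases before a RefSeq start on GRCh38.p14 that holds no GENCODE exon. It is printed 5′ to 3′ on the strand of the gene. Capitals mark the GC box GGGCGG on either strand and, for TJP1, the E-box CAGGTG. The CGN run is chr1:151511137-151511386, the TJP1 run chr15:29969050-29969299 and the MARVELD2 run chr5:69414866-69415064.
CGN: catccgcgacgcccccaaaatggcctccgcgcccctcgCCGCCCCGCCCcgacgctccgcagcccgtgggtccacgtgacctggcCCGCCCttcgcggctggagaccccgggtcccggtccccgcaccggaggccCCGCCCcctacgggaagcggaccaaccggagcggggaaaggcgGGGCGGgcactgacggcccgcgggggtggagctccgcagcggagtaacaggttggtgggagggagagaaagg
TJP1: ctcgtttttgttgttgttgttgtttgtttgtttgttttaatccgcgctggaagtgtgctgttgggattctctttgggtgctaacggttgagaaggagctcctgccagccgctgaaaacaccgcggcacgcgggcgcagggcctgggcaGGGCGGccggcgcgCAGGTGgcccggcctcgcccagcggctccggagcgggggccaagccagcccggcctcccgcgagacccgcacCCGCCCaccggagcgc
MARVELD2: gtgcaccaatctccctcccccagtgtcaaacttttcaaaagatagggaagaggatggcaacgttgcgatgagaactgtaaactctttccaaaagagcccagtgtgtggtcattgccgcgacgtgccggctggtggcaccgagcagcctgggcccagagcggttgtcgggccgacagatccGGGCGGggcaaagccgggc
The CGN run holds 5 GC boxes, which may overlap by 1 base, the TJP1 run 2 and the MARVELD2 run 1. The MARVELD2 run is 199 bases long, and its whole window of 250 bases holds 3 GC boxes. The TJP1 run holds 1 CAGGTG and the CGN and MARVELD2 runs hold 0. TJP1 has 4 RefSeq starts, of which only the first is shown, and the windows of the others hold 0 CAGGTG. Of 35116 RefSeq windows of 250 bases, 42.6% hold GGGCGG and 17.5% hold CAGGTG on either strand. Both of the OCLN windows, at chr5:69492297-69492546 and chr5:69492540-69492789, hold 1 CAGGTG. These windows overlap at their ends, and both hold bases of GENCODE exons of OCLN. The CGN run lies within the GENCODE span of CGN, outside its exons. A kappaB motif (held by 0.5% of all windows), the AP-1 motif TGANTCA (6.6%), the cAMP response element TGACGTCA (1.6%), the forkhead motif GTAAACA (3.0%) and the TATA box TATAAA (10.7%) had 0 matches in the 8 windows of these 4 genes. These are matches of letters only.

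Levels are CPM, counts per 1000000 counts of a library, scaled over all 30 libraries by the trimmed mean of M-values (TMM). The sign ± stands between a mean and its SD, always with n = 3. Differences are on the log2 scale with their standard error (SE), and an adjusted p comes from the quasi-likelihood test of edgeR, adjusted by Benjamini-Hochberg over all genes, and is called under 0.05. The labels do not say whether the 3 libraries of a group came from separate cultures, so p-values measure only the spread between these libraries. Between 16643961 and 22112326 counts fell on genes in a library, the biological coefficient of variation was 0.05 to 0.0553, and all libraries carry the same batch number. Of 10 markers of endothelium, all 10 were at 1 CPM or more in each group. Of 7 markers of brain endothelium 6 were at that level, and SLCO1C1 had 0 counts. Of 8 epithelial markers at most 2 reached 1 CPM in a group, their summed level was 2.6 to 6.84 CPM, and EPCAM, CDH1, KRT5, ESRP1, ESRP2 and GRHL2 stayed under 1 CPM. The pericyte list, led by ANPEP and CSPG4 (556 and 324 CPM in Control), summed to 708 to 1000 CPM, and leukocyte markers to 0.576 to 2.26 CPM. In bulk RNA, fewer cells of a type and less RNA per cell cannot be told apart.

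Of the 9 genes, 8 had a mean of 5.74 CPM or more in every group. Per kb of exon in Control, the scaffold gene TJP1 stood highest at 16.9 ± 0.881 CPM per kb (SD, n = 3). CLDN5 followed at 13.9 ± 0.977 CPM per kb, F11R at 12.1 ± 0.394 and ESAM at 8.36 ± 0.126. JAM3 (3.62 ± 0.201), OCLN (2.96 ± 0.389), MARVELD2 (2.01 ± 0.176) and CGN (1.85 ± 0.107 CPM per kb) formed a lower tier. JAM2 had 0 to 9 counts in a library and 71 counts in all 30, with at most 13 in any group (EV-Control). It did not pass the filter on low counts, so no test is given for it and 8 of the 9 genes were tested. A count of 0, seen for JAM2 in some libraries, allows up to 3 counts.

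Across the 10 groups the genes differed in how far they moved. The span between the highest and the lowest group mean on the log2 scale was 1.65 for CLDN5, 1.44 for CGN, 1.11 for ESAM and 0.80 for F11R. It was 0.61 for MARVELD2, 0.54 for OCLN, 0.44 for TJP1 and 0.41 for JAM3, against a median of 0.71 over the 16691 genes of the fit of all libraries. CLDN5, CGN, ESAM and F11R thus spanned more than the median gene, and MARVELD2, OCLN, TJP1 and JAM3 less.

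**Figure D1:**
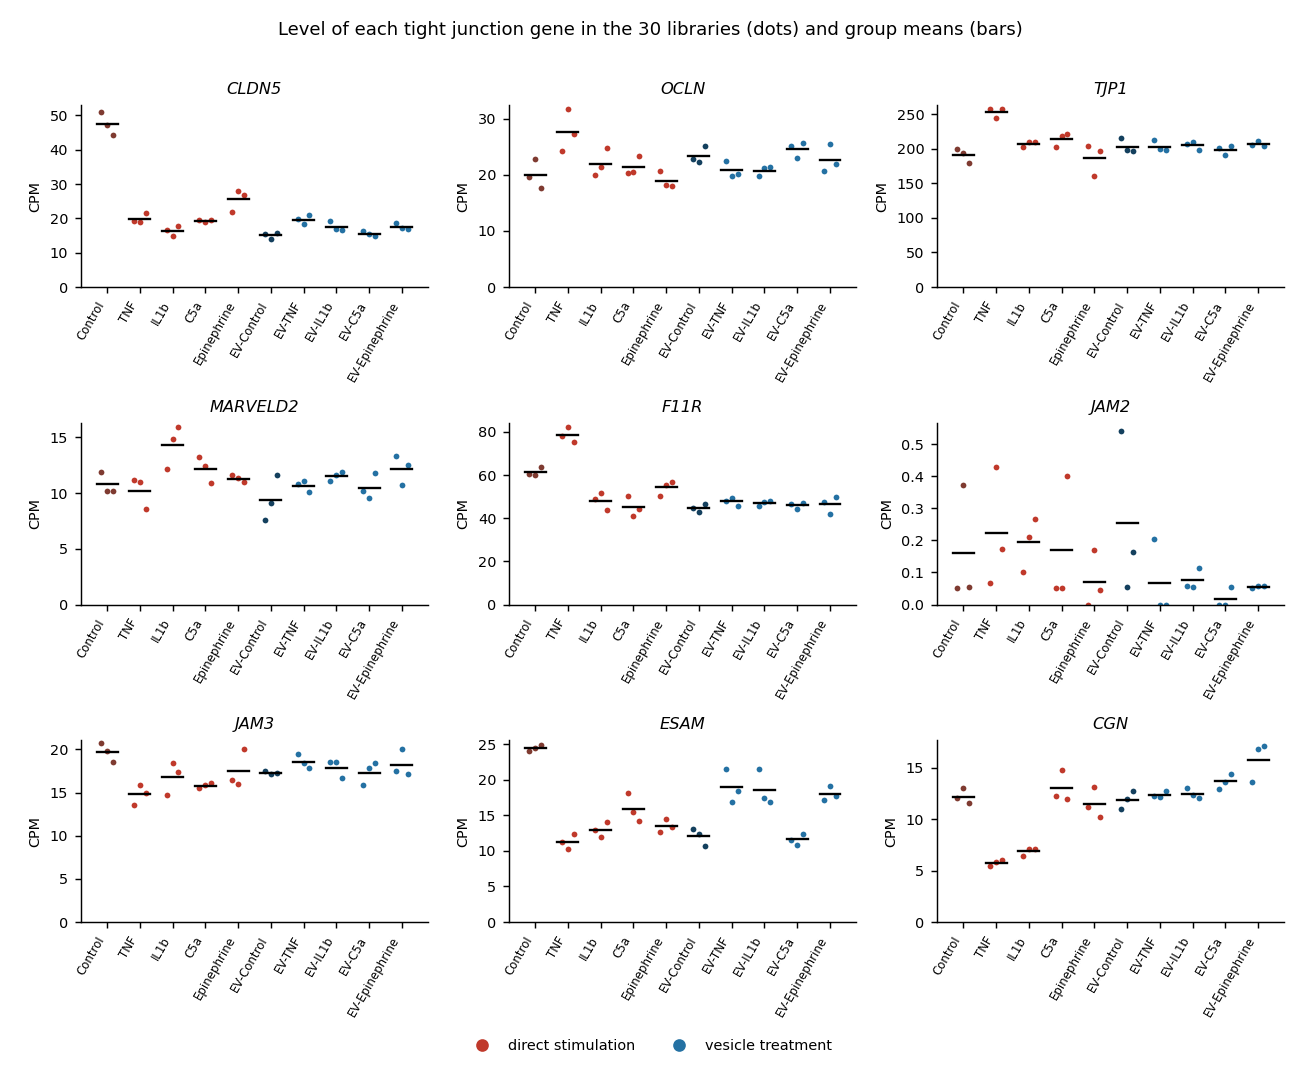
Level of each of the 9 genes in CPM (vertical axis, linear, from 0) in each of the 30 libraries (dots) and the mean of each group of 3 (bars), with the direct groups in red, the vesicle groups in blue and both controls in a darker shade. CLDN5 and ESAM are highest in the 3 Control libraries, CGN is lowest in TNF and IL1b, TJP1 and F11R are highest in TNF, and JAM2 stays under 1 CPM.

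CLDN5, the best known claudin of brain endothelium, was highest in unstimulated cells without vesicles. The 3 Control libraries held 51.1, 47.3 and 44.4 CPM. Under direct stimulation the libraries held 19.1, 18.9 and 21.5 CPM with TNF, 16.6, 14.9 and 17.9 with IL1b, 19.6, 18.8 and 19.6 with C5a, and 21.8, 28 and 26.8 with Epinephrine. No stimulated library overlapped a Control library. CLDN5 was lower than in Control by 58.3% in TNF (log2 difference -1.26, SE 0.0899, adjusted p 1.56e-14) and by 65.3% in IL1b (-1.53, SE 0.0907, adjusted p 3.5e-16). It was lower by 59.1% in C5a (-1.29, SE 0.0888, adjusted p 1.39e-13) and by 46.0% in Epinephrine (-0.89, SE 0.0862, adjusted p 5.59e-10). These 4 comparisons share the same 3 Control libraries. Between the cytokines, IL1b cells had 16.7% less CLDN5 than TNF cells (-0.26, adjusted p 0.0297), a call that leaving out IL1b replicate 1 (-0.27, adjusted p 0.061), IL1b replicate 2 (-0.20, 0.162) or TNF replicate 3 (-0.20, 0.166) ended.

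The vesicle groups all had low CLDN5. The 3 EV-Control libraries held 15.5, 14.1 and 15.8 CPM, the lowest mean of the 10 groups, and 68.3% less than Control (-1.66, SE 0.0896, adjusted p 6.61e-23). EV-TNF libraries held 19.7, 18.3 and 20.9 CPM and did not overlap EV-Control (0.37, SE 0.0944, adjusted p 0.00376). EV-IL1b (19.3, 16.9 and 16.7 CPM) and EV-Epinephrine (18.7, 17.2 and 16.8 CPM) also lay above EV-Control but did not pass the test (0.22, adjusted p 0.122, and 0.22, adjusted p 0.103). EV-C5a libraries, at 16.4, 15.4 and 14.8 CPM, overlapped EV-Control (0.04, adjusted p 0.967). In the order of the 10 means, Control (47.6 ± 3.35 CPM) stood clear of Epinephrine (25.5 ± 3.28), and Epinephrine clear of TNF (19.8 ± 1.49). From TNF down to EV-Control (15.1 ± 0.915 CPM) each group overlapped its neighbour.

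The summed level of the 10 endothelial markers was 1340 to 1390 CPM in Control, 1290 to 1330 in TNF, 1000 to 1040 in IL1b, 1020 to 1050 in C5a and 1140 to 1210 in Epinephrine. It was 918 to 971 CPM in EV-Control and 921 to 953 in EV-C5a, and higher in EV-TNF (991 to 1020), EV-IL1b (998 to 1040) and EV-Epinephrine (989 to 1030 CPM). Single markers went different ways. PECAM1 (271 CPM in Control) and EGFL7 (163) had lower means in TNF (157 and 75.2 CPM), as CLDN5 did, while CDH5 (269), VWF (63.9) and TEK (36.7) had higher ones (426, 99.1 and 63 CPM). All 10 stayed at 1 CPM or more in every group, and epithelial markers summed to at most 6.84 CPM in any library. The part of the marker levels in the CLDN5 and ESAM differences was not tested.

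Of the MARVEL genes, OCLN was highest in TNF and MARVELD2 in IL1b. The OCLN libraries held 19.6, 22.9 and 17.7 CPM in Control and 24.2, 31.7 and 27.2 CPM in TNF, with no overlap. OCLN was 38.5% higher in TNF (0.47, SE 0.104, adjusted p 0.000244), a call lost with scaling by total counts (0.19, adjusted p 0.105). OCLN in IL1b (22 ± 2.46 CPM), C5a (21.4 ± 1.64) and Epinephrine (18.9 ± 1.46) overlapped Control and did not pass the test. In the vesicle arm its group means lay between 20.7 and 24.6 CPM, and none passed the test against EV-Control. Of the 100-base stretches of OCLN, 6.2% also occur in its partial copy OCLNP1, which had 0 to 3 counts in a library. MARVELD2 libraries held 11.9, 10.2 and 10.2 CPM in Control and 12.2, 14.9 and 15.9 CPM in IL1b. They did not overlap, and MARVELD2 was 33.5% higher in IL1b (0.42, SE 0.121, adjusted p 0.0047). In TNF it stood at 11.2, 11 and 8.61 CPM, which overlapped Control (-0.08, adjusted p 0.646). In EV-Epinephrine MARVELD2 was 29.2% above EV-Control (0.37, SE 0.126, adjusted p 0.0292), although the libraries (13.3, 10.7 and 12.5 against 7.56, 9.1 and 11.6 CPM) overlapped. Leaving out EV-Control replicate 1 (0.24, adjusted p 0.254) or replicate 2 (0.34, 0.095) or EV-Epinephrine replicate 1 (0.30, 0.167) or replicate 3 (0.35, 0.0918) ended that call.

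F11R, an adhesion molecule that also binds leukocyte integrin, rose with 1 cytokine and fell with the other. Its libraries held 60.3, 60.1 and 63.7 CPM in Control, 78.0, 82.2 and 75.3 in TNF and 48.7, 51.5 and 43.9 in IL1b, with no overlap between any of these groups. It was 27.8% higher in TNF (0.35, SE 0.0679, adjusted p 3.43e-05) and 21.3% lower in IL1b (-0.34, SE 0.0696, adjusted p 9.43e-05). The rise in TNF was not called with scaling by total counts (0.08, adjusted p 0.314). The direct comparison of IL1b with TNF gave the largest difference between the cytokines among the 8 tested genes, -0.70 (SE 0.069, adjusted p 1.41e-10). With scaling by total counts it was -0.51, and MARVELD2 (0.69) then differed more. In C5a, F11R stood at 50.4, 41 and 44.5 CPM, 25.7% under Control (-0.43, adjusted p 1.52e-05). In Epinephrine (50.3, 55.6 and 56.9 CPM) the libraries also lay under Control without passing the test (-0.17, adjusted p 0.0732). That difference was called in a fit of all 30 libraries (-0.18, adjusted p 0.037) and at a mean count of at least 50 (-0.18, 0.0426). EV-Control stood at 44.9, 43.1 and 46.6 CPM, 26.9% under Control (-0.45, SE 0.0667, adjusted p 2.76e-07), and the other vesicle groups, with means of 46.1 to 47.8 CPM, did not differ from it past the threshold. Of the 100-base stretches of F11R, 32.76% also occur in an overlapping read-through gene on the same strand (ENSG00000270149), which had 0 to 6 counts in a library.

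ESAM, an adhesion molecule of endothelial cells and platelets, was lower than Control under all 4 stimuli, and higher than EV-Control with 3 of the 4 kinds of vesicles. The libraries held 24.0, 24.5 and 24.8 CPM in Control, 11.3, 10.3 and 12.4 in TNF, 12.9, 12.0 and 14.1 in IL1b, 18.1, 15.4 and 14.2 in C5a, and 12.7, 14.5 and 13.3 in Epinephrine. All 12 stimulated libraries lay under all 3 Control libraries. ESAM was lower by 53.7% in TNF (-1.11, SE 0.105, adjusted p 2.33e-11), by 46.4% in IL1b (-0.90, adjusted p 2.98e-09), by 34.5% in C5a (-0.61, adjusted p 1.42e-05) and by 44.4% in Epinephrine (-0.85, adjusted p 4.5e-08). EV-Control libraries held 13.1, 12.4 and 10.7 CPM, 50.6% under Control (-1.02, SE 0.106, adjusted p 1.49e-11). EV-TNF (21.5, 16.9 and 18.4 CPM), EV-IL1b (21.5, 17.4 and 16.9) and EV-Epinephrine (17.1, 19.1 and 17.7) all lay above EV-Control. The differences were 0.65 (SE 0.107, adjusted p 7.64e-06), 0.62 (SE 0.108, adjusted p 1.92e-05) and 0.57 (SE 0.108, adjusted p 5.49e-05). EV-C5a, at 11.5, 10.8 and 12.4 CPM, overlapped EV-Control (-0.06, adjusted p 0.955). Some markers of endothelium, pericytes and fibroblasts, named after their values were seen, had higher means in the same 3 groups than in EV-Control and EV-C5a. The endothelial marker PECAM1 had means of 194, 196 and 173 CPM in EV-TNF, EV-IL1b and EV-Epinephrine, against 148 in EV-Control and 149 in EV-C5a. For the pericyte marker NOTCH3 these were 19.1, 16 and 24.3 CPM against 8.69 and 10.5, and for the fibroblast marker COL1A1 106, 108 and 122 against 87.5 and 88.8. Other markers of these lists did not rise in this way. The endothelial marker CLEC14A had lower means (204, 207 and 216 against 240 and 232 CPM), and CDH5 stood at 187, 186 and 189 against 189 and 177. The pericyte marker PDGFRB stood at 75.8, 77 and 82.6 against 84.8 and 79.7 CPM. KCNJ8 and ABCC9 of the pericyte list and PDGFRA and DCN of the fibroblast list stayed under 1 CPM. The whole pericyte list summed to 846 to 892, 861 to 911 and 972 to 997 CPM in these 3 groups, against 828 to 848 in EV-Control and 815 to 852 in EV-C5a. Their part in the ESAM differences was not tested. None of these ESAM calls was lost under any alternative setting.

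JAM3 moved less than ESAM. It stood at 20.7, 19.8 and 18.6 CPM in Control and 13.6, 15.9 and 15 CPM in TNF, where it was 24.7% lower (-0.41, SE 0.104, adjusted p 0.00115). In C5a (15.5, 15.9 and 16.1 CPM) it was 19.1% lower (-0.31, SE 0.102, adjusted p 0.0262), a call that stood without Control replicate 3 but not without any one of the other 5 libraries (adjusted p 0.0577 to 0.126). In IL1b (14.7, 18.4 and 17.4 CPM) the libraries lay under Control with an adjusted p of 0.0722 (-0.22). That difference was called in a fit of all 30 libraries (adjusted p 0.0416) or of the 2 groups (0.039), at a mean count of at least 50 (0.0367), with scaling by total counts (-0.30, 0.0123) and without IL1b replicate 2 (-0.29, 0.0405). The vesicle groups had means of 17.3 to 18.5 CPM and none passed the test against EV-Control. JAM3 shares 465 exonic bases with NCAPD3 on the opposite strand, and whether counting used the strand is not given in the sources used here.

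Of the plaque genes, TJP1 was highest in TNF and CGN lowest in TNF and IL1b. TJP1 libraries held 199, 194 and 180 CPM in Control and 257, 245 and 258 CPM in TNF, which is 32.7% higher (0.41, SE 0.0621, adjusted p 3.17e-06). That TNF call was lost with scaling by total counts (0.13, adjusted p 0.0745). The other 8 groups had TJP1 means of 187 to 214 CPM. C5a, at 202, 218 and 221 CPM, was the nearest to TNF and lay above Control (0.17, SE 0.0621, adjusted p 0.0434). This C5a call was lost with DESeq2 (adjusted p 0.0639), with relative log expression factors (0.0616) and at a mean count of at least 50 (0.0712). It was also lost without C5a replicate 2 (0.124), C5a replicate 3 (0.146), Control replicate 2 (0.0789) or Control replicate 3 (0.186). IL1b, at 203, 209 and 210 CPM, did not pass (0.13, adjusted p 0.0938). CGN libraries held 12.1, 13.0 and 11.6 CPM in Control, 5.41, 5.8 and 6.01 in TNF and 6.45, 7.13 and 7.08 in IL1b. CGN was 52.9% lower in TNF (-1.09, SE 0.132, adjusted p 8.7e-09) and 43.3% lower in IL1b (-0.82, SE 0.126, adjusted p 1.53e-06). In C5a (13.0 ± 1.54 CPM), Epinephrine (11.5 ± 1.49) and EV-Control (11.9 ± 0.89) it overlapped Control and did not pass the test. EV-Epinephrine libraries, at 13.6, 16.8 and 17.1 CPM, were the highest for CGN and lay above EV-Control at 11, 12 and 12.8 CPM (0.41, SE 0.107, adjusted p 0.00386).

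The comparison of TNF with Control asked what the cytokine did to the junction genes directly. Of the 8 tested genes 7 were called, in a comparison where 52.7% of all 15908 genes were. OCLN, TJP1 and F11R were higher (27.5% of all genes were) and CLDN5, ESAM, CGN and JAM3 lower (25.3% of all genes). The median difference was -0.24 for the 8 genes and -0.01 for all genes. With scaling by total counts, which shifts the median of all genes to -0.288, the 3 rises were no longer called: OCLN 0.19 (adjusted p 0.105), TJP1 0.13 (0.0745) and F11R 0.08 (0.314). MARVELD2 was then called lower (-0.35, adjusted p 0.0171), so that 0 of 8 genes were higher and 5 lower, where 14.4% of all genes were higher and 48.9% lower. The 4 falls stood under every setting tried.

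With IL1b, 5 of 8 genes were called, against 46.6% of all genes. MARVELD2 was higher (24.0% of all genes were), and CLDN5, ESAM, CGN and F11R lower (22.6% of all genes). The median was -0.28 for the 8 genes and -0.01 for all. With scaling by total counts 18.3% of all genes were higher and 29.1% lower. Set directly against TNF, IL1b cells differed in 5 of 8 genes (41.4% of all genes). MARVELD2 was higher in IL1b (0.49, adjusted p 0.00135, 19.9% of all genes higher). F11R, OCLN (-0.33, adjusted p 0.00982), TJP1 (-0.28, adjusted p 0.000599) and CLDN5 were lower (21.4% of all genes lower). The OCLN call was lost without IL1b replicate 1 (-0.26, adjusted p 0.0755) or TNF replicate 2 (-0.22, 0.13). Under scaling by total counts, which shifts the median of all genes to 0.205, CLDN5, OCLN and TJP1 were not called (adjusted p 0.575, 0.287 and 0.268). JAM3 (0.38), ESAM (0.41) and CGN (0.46) were then called higher in IL1b, where 40.9% of all genes were higher and 12.8% lower.

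With C5a, 5 of 8 genes were called, where 22.6% of all genes were. TJP1 was the 1 called higher (11.8% of all genes), and CLDN5, ESAM, F11R and JAM3 were lower (10.8% of all genes). Without C5a replicate 2, C5a replicate 3 or Control replicate 2, 3 genes were called. With Epinephrine 2 of 8 genes were called, CLDN5 and ESAM, both lower, where 25.2% of all genes were called, 13.5% higher and 11.8% lower. The other 6 genes had log2 differences of -0.17 to 0.08 under Epinephrine.

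Cells given vesicles of unstimulated cells were also compared with cells given none. Of 8 genes 3 were called, CLDN5, ESAM and F11R, all lower in EV-Control, where 21.9% of all 16691 genes were called, 12.1% higher and 9.8% lower (9.66% and 13.0% with scaling by total counts). This comparison uses the same Control libraries as the 4 direct ones. Side by side, the log2 differences from Control in TNF, IL1b, C5a, Epinephrine and EV-Control were -1.26, -1.53, -1.29, -0.89 and -1.66 for CLDN5. For ESAM they were -1.11, -0.90, -0.61, -0.85 and -1.02. What else differed between the arms is not stated in the sources used here, so the vesicles and any other difference between the arms cannot be told apart.

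Within the vesicle arm, each of these genes that was called was higher than in EV-Control. In EV-TNF 2 of 8 were called, ESAM and CLDN5, where 13.3% of all 15918 genes were (5.9% higher and 7.42% lower). In EV-IL1b 1 of 8 was called, ESAM, where 14.6% of all genes were (6.49% higher and 8.14% lower). Without EV-Control replicate 3, MARVELD2 was called as well (0.47, adjusted p 0.0134). In EV-Epinephrine 3 of 8 were called, ESAM, CGN and MARVELD2, where 19.7% of all genes were (9.12% higher and 10.5% lower, or 12.4% and 8.2% with scaling by total counts). In EV-C5a, 0 of 8 were called by edgeR, 0 by DESeq2 and 0 had an unadjusted p under 0.05, where 8 genes in all were called (0.0503%, with 0.0126% higher and 0.0377% lower). The 4 comparisons share the 3 EV-Control libraries.

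**Figure D2:**
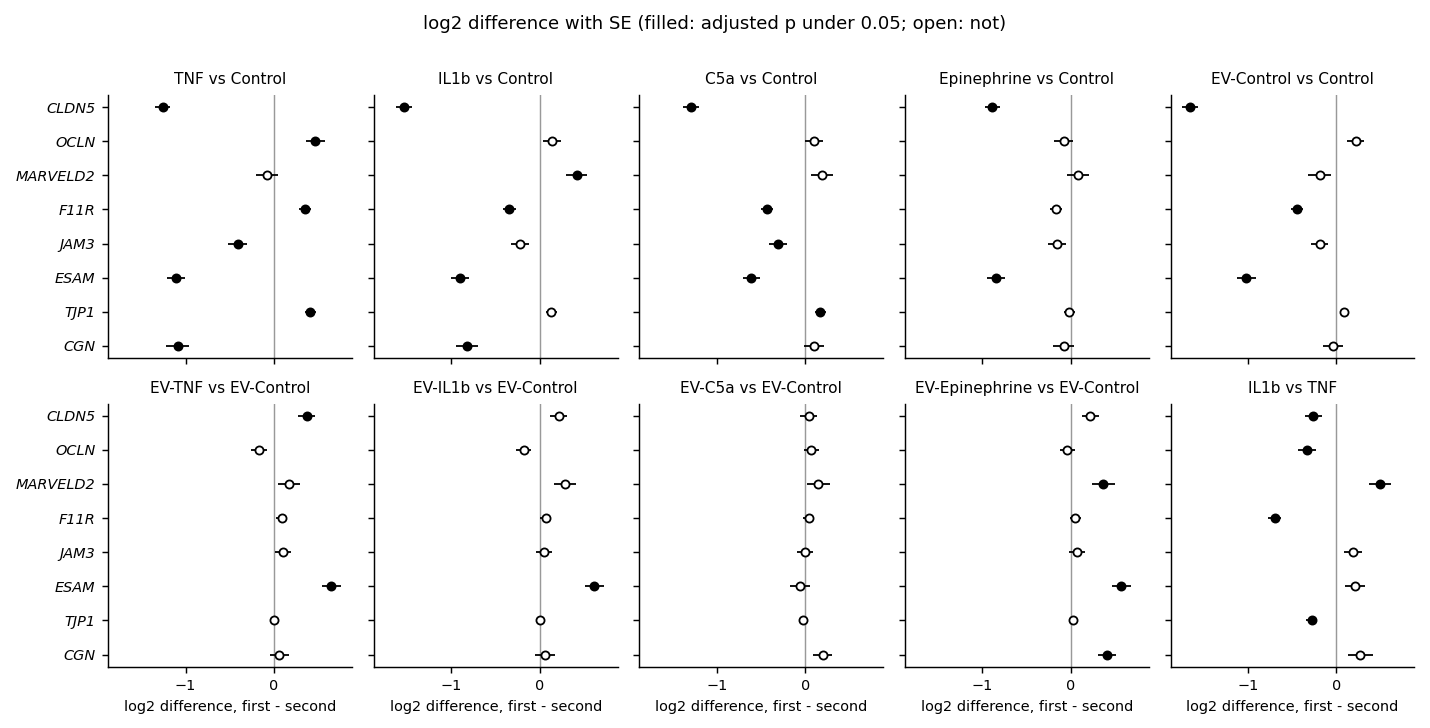
log2 difference (horizontal axis, with SE) of the 8 tested genes in 10 comparisons, first group minus second, with filled symbols for an adjusted p under 0.05. CLDN5 and ESAM lie to the left in all 5 comparisons with Control, ESAM lies to the right in 3 of the 4 vesicle comparisons, and no symbol is filled for EV-C5a.

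Whether a stimulus and the vesicles it gave rise to acted alike was tested as the vesicle response minus the direct response, on the log2 scale. For TNF 7 of 8 genes differed (44.7% of all genes), and CLDN5 (difference 1.64, adjusted p 5.02e-17), ESAM (1.76, adjusted p 1.75e-15) and CGN (1.14, adjusted p 5.45e-08) differed most. For IL1b 4 of 8 differed (35.2% of all genes), for C5a 3 of 8 (11.9%) and for Epinephrine 3 of 8 (24.2%). CLDN5 and ESAM were among them for all 4 stimuli, with a more positive vesicle response each time. ESAM moved in opposite directions, down under the stimulus and up under its vesicles, with TNF, IL1b and Epinephrine, each move called on its own. The 2 controls are themselves unlike for CLDN5 and ESAM, as given above, so the 2 responses start from different levels.

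**Figure D3:**
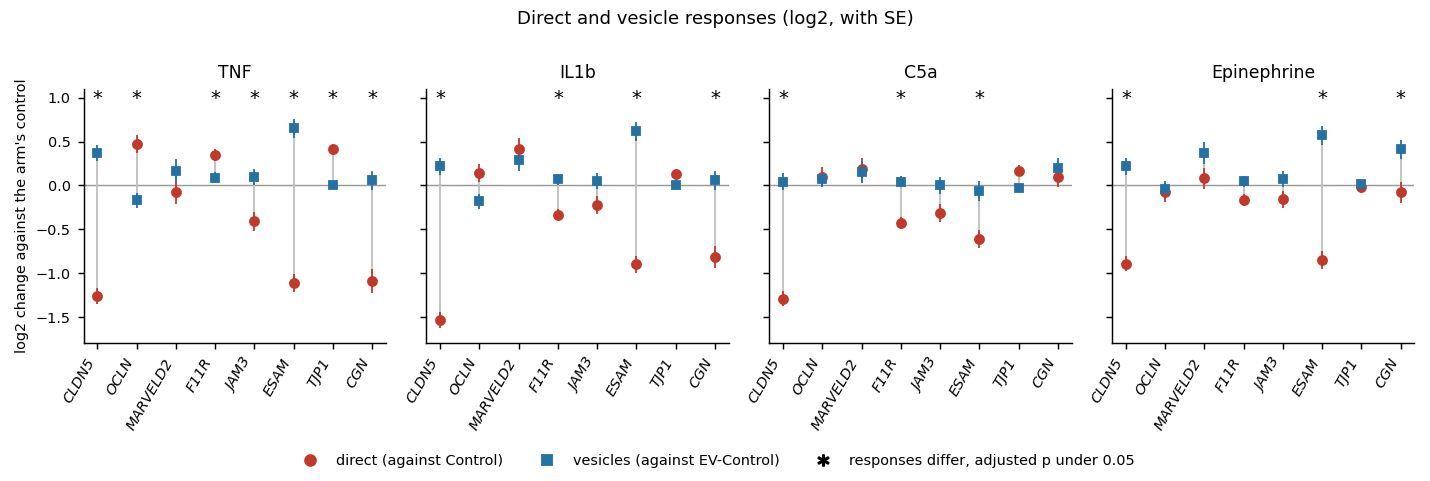
Direct response (red circles, against Control) and vesicle response (blue squares, against EV-Control) of the 8 tested genes to each stimulus, as log2 change with SE on the vertical axis, with an asterisk where the 2 responses differ at an adjusted p under 0.05. CLDN5 and ESAM carry an asterisk in all 4 panels, and the blue squares of ESAM lie near 0.6 in 3 of them and at -0.06 for C5a.

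The rest of the tight junction was read from a list of 53 symbols, of which 52 are in the table (MPP5 is the older symbol of PALS1) and 38 passed the filter. Of these 38, 16 were higher and 10 lower in TNF (27.5% and 25.3% of all genes), or 7 and 20 with scaling by total counts (14.4% and 48.9% of all genes). With a mean count of at least 50, 6 were lower in TNF. In IL1b 9 were higher and 13 lower (24.0% and 22.6% of all genes), and in C5a 6 and 5 (11.8% and 10.8%). In Epinephrine 9 were higher and 8 lower (13.5% and 11.8%). The 8 became 5 without Control replicate 1 or 2 or Epinephrine replicate 2, and 4 in a fit of the 2 groups. In EV-TNF 4 were higher and 7 lower (5.9% and 7.42% of all genes), with 2 higher without EV-Control replicate 1 or 2. In EV-IL1b 5 were higher and 7 lower (6.49% and 8.14%). The 5 became 2 without EV-IL1b replicate 1, and 3 without EV-IL1b replicate 3 or EV-Control replicate 3 or in a fit of the 2 groups. In EV-C5a 0 were higher and 0 lower, and in EV-Epinephrine 2 and 9 (9.12% and 10.5%). In EV-Control against Control they numbered 9 and 2 (12.1% and 9.8%). In IL1b against TNF 5 were higher and 15 lower (19.9% and 21.4% of all genes), or 12 and 8 with scaling by total counts (40.9% and 12.8%). The median log2 difference of the list was between -0.11 and 0.10 in all 10 of these comparisons, and that of all genes between -0.012 and 0.012.

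Among the other claudins, CLDN1 and CLDN11 rose with both cytokines, where CLDN5 fell. CLDN1, a claudin best known from epithelia, rose from 44.0 ± 2.60 CPM in Control to 520 ± 15 CPM in TNF (3.56, SE 0.0626, adjusted p 3.92e-32). In IL1b it stood at 170 ± 6.52 CPM (1.96, adjusted p 6.78e-24). CLDN11, known from myelin and also from brain vessels, had the highest level per length in Control of the 5 claudins plotted, with 52.2 ± 2.91 CPM per kb against 13.9 ± 0.977 for CLDN5 and 12.0 ± 0.709 for CLDN1. It rose from 195 ± 10.8 to 550 ± 6.63 CPM in TNF (1.5, adjusted p 6.66e-26), and was higher in IL1b (0.76, adjusted p 1.49e-16), C5a (0.66, adjusted p 4.65e-14) and Epinephrine (0.24, adjusted p 9.05e-05). CLDN11 was also higher in EV-Control than in Control (0.35, adjusted p 7.35e-10). CLDN14, a claudin of the inner ear and kidney, split by stimulus. It rose from 15.7 ± 0.961 to 103 ± 11.9 CPM in TNF (2.72, adjusted p 4.41e-16) and fell to 5.24 ± 0.396 CPM in IL1b (-1.57, adjusted p 7.26e-09) and 2.25 ± 1.06 CPM in C5a (-2.79, adjusted p 2.91e-11). In the vesicle arm CLDN14 was lower in EV-Epinephrine (6.27 ± 0.501 against 17.2 ± 2.70 CPM, -1.45, adjusted p 3.3e-13), EV-TNF (-0.65) and EV-IL1b (-0.62). CLDN12 was higher in TNF (61.2 ± 1.23 against 44.5 ± 1.73 CPM, 0.46, adjusted p 1.83e-07) and IL1b (0.21, adjusted p 0.00768). It was lower in C5a (-0.33, adjusted p 0.000256), Epinephrine (-0.20, adjusted p 0.0225) and EV-Control against Control (-0.32, adjusted p 0.000207). The IL1b call was lost with scaling by total counts (0.13, adjusted p 0.104) and without IL1b replicate 1 (0.17, 0.0582). The Epinephrine call was lost without Control replicate 3 (-0.17, adjusted p 0.0999) or Epinephrine replicate 1 (-0.17, 0.0829), in a fit of the 2 groups (0.0582) and without a filter (0.0516).

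**Figure D4:**
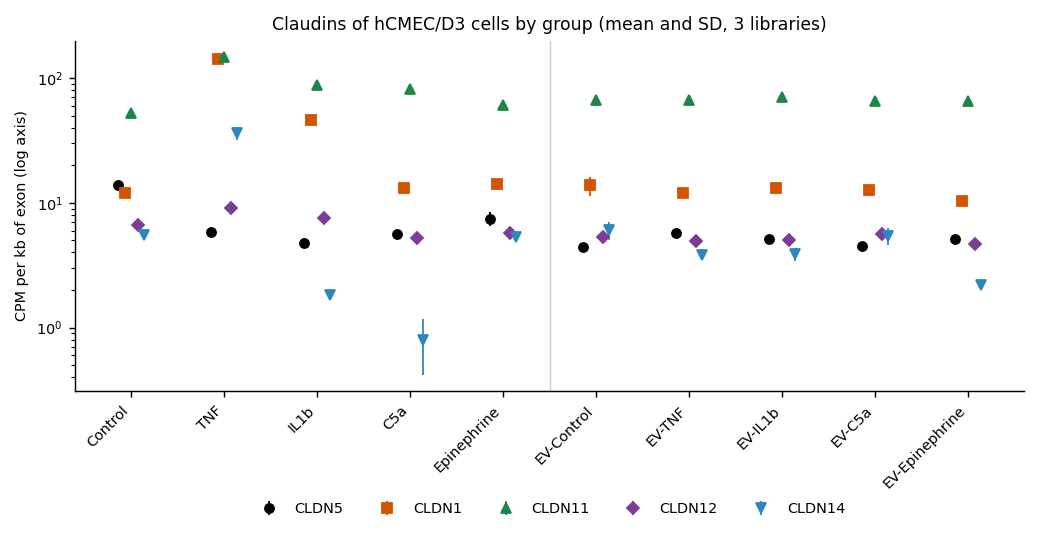
CPM per kb of exon (vertical axis, logarithmic) of CLDN5 and 4 other claudins in the 10 groups, as mean and SD of 3 libraries, with the direct groups left of the line. CLDN1 and CLDN11 reach 142 and 147 CPM per kb in TNF, where CLDN5 is at 5.79, and CLDN14 runs from 0.788 in C5a to 36.2 in TNF.

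Of the relatives of the plaque and adhesion genes, CGNL1 rose and CXADR fell in TNF. Paracingulin (CGNL1), the nearest relative of CGN, was 56.1% higher in TNF (24.5 against 15.7 CPM, 0.64, adjusted p 3.63e-07), where CGN was lower. In IL1b its difference was -0.24 (adjusted p 0.0429), a call lost without any one of Control replicates 1 and 3 or IL1b replicates 1 and 3 (adjusted p 0.0972 to 0.14). CXADR, an adhesion molecule of the same family as ESAM, was 47.3% lower in TNF (-0.92, adjusted p 3.83e-09). CLMP, another of that family, was higher in IL1b (0.88, adjusted p 7.12e-14), Epinephrine (0.65, adjusted p 8.34e-10) and C5a (0.44, adjusted p 2.92e-06). CLMP was also higher in EV-Control than in Control (0.48, adjusted p 3.6e-09). Against EV-Control it was lower in EV-TNF (-0.40, adjusted p 1.33e-07) and EV-IL1b (-0.40, adjusted p 1.24e-07). The EV-Epinephrine libraries (62.3, 62.3 and 58.9 CPM) also lay under those of EV-Control (72.4, 73.2 and 74.9 CPM). EV-C5a (73.3, 71.1 and 65.9 CPM) overlapped EV-Control. LSR, which recruits tricellulin to corners between cells, was at 0.887 to 1.69 CPM in the groups and passed the test in no comparison of 2 groups. Without Control replicate 3 it was called lower in IL1b, Epinephrine and EV-Control (adjusted p 0.0384, 0.0354 and 0.0443).

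The genes whose pattern was nearest to each member were ranked by Pearson's r over the 10 group means of log2 CPM, among 11057 genes. The 10 means come from 1 cell line and 1 joint scaling, and r is given as a description. For CLDN5 they included HYAL2 (0.972) and TIGD6 (0.933), and for ESAM they were DYSF (0.969), TM4SF18 (0.933) and ITM2A (0.928). For CGN they were CEP57 (0.987), DENND5B (0.978) and PDZD7 (0.977), and for F11R LIPA (0.981), ALPK1 (0.976) and SENCR (0.972). For OCLN they were NFIX (0.943), FBXO11 (0.93) and MAP4 (0.928), and for MARVELD2 ALDH18A1 (0.948), PHF23 (0.938) and ZNF638 (0.93). None of the 9 junction genes was among the 3 nearest of these 6. ESAM ranked 445 of 11057 for CLDN5 (r 0.638), and TJP1 ranked 213 for OCLN (r 0.787).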

How the data were processed

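RNA of hCMEC/D3 cells was made into 30 libraries, each from 1 ng of total RNA, per the labels' protocols. The authors deposited 1 table of raw counts, a row for each Ensembl gene, not normalized. The submitters' processing notes name FastQC, STAR, DESeq2, R 4.4.1 and hg38, without role or order. The counting program, annotation release and strand setting are not given in the sources used here. Of 63147 lines, 4 without a gene ID (0.00079% to 0.0016% of counts), 2 genes without counts and 3 repeats were left out.

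Counts were filtered with filterByExpr, scaled by TMM and tested in R 4.3.3 with edgeR 4.0.16, by the quasi-likelihood test with robust dispersions, two-sided, called at an adjusted p under 0.05. The direct comparisons used a fit of the 15 direct libraries, those among vesicle groups the 15 vesicle libraries (15908 and 15918 genes), and EV-Control against Control and the response differences all 30 (16691 genes). log2 CPM used a prior count of 2. Positions and exon lengths are those of GENCODE 29, and shared stretches were counted over 100-base windows of transcripts. On simulated counts of TNF against Control with 14718 genes, 181 of 200 genes changed by 1 on the log2 scale were found (90.5%), with 6 false calls. On simulated counts of IL1b against Control without changes, 0 genes were called. The simulation raised as many genes as it lowered and used 1 fixed dispersion for all genes. In the data 52.7% of genes were called in TNF, so the simulation cannot show how the choice of scaling affects that comparison.

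The members, the list of 53 other tight junction genes and the list of 41 regulators were chosen with earlier results of these data known. All members are named in the account. Of each list, up to 3 called genes with the largest rise and 3 with the largest fall among those at 5 CPM or more in the higher group, and CLDN1, CLDN11, CLDN12, CGNL1 and LSR, could be named. Results for 2 genes that these rules select are not reported here. The 3 genes nearest to a member were sought for members whose group means span 0.5 or more. Alternatives were DESeq2 1.42.0, relative log expression factors, scaling by total counts, no filter, a mean count of at least 50, replicate number as a term, other sets of libraries in the fit, and leaving out each library. For the lists they were added after seeing the data.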

Additional observations from a re-analysis of the deposited data

Results flagged for a closer look

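For 17 differences between the vesicle response and the direct response, the test of the difference itself passed (edgeR's quasi-likelihood test, adjusted p under 0.05, fit of all 30 libraries). Each value is the vesicle response minus the direct response on the log2 scale. The adjusted p is in parentheses. Of all 16691 genes, this test passed for 44.7% with TNF, 35.2% with IL1b, 11.9% with C5a and 24.2% with Epinephrine.

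With TNF, the adhesion gene ESAM differed by 1.76 (1.75e-15), the claudin gene CLDN5 by 1.64 (5.02e-17), the cingulin gene CGN by 1.14 (5.45e-08) and JAM3 by 0.51 (0.0017). These 4 genes were lower than Control under TNF itself and not lower than EV-Control under its vesicles. The occludin gene OCLN differed by -0.64 (7.64e-05), the scaffold gene TJP1 by -0.41 (1.71e-05) and F11R by -0.26 (0.0176). These 3 were higher than Control under TNF, though not called so with scaling by total counts.

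With IL1b, CLDN5 differed by 1.76 (2.3e-17), ESAM by 1.53 (6.98e-13), CGN by 0.89 (1.23e-05) and F11R by 0.42 (0.00024). With C5a, CLDN5 differed by 1.34 (1.05e-11), ESAM by 0.56 (0.00817) and F11R by 0.48 (0.000215). Against EV-Control, 0 of the 8 tested genes were called in EV-C5a. With Epinephrine, ESAM differed by 1.43 (1.48e-11), CLDN5 by 1.12 (2.84e-10) and CGN by 0.49 (0.0146).

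The 4 differences of CLDN5 and the 4 of ESAM each use the same Control and EV-Control libraries. The Control mean of CLDN5 was 47.6 CPM and the EV-Control mean 15.1 CPM, and for ESAM these were 24.4 and 12.1 CPM.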

How the results depend on the processing

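Of the 14 counts of called junction genes, 11 stayed within 1.5 times under every alternative. The other 3 moved when 1 library was left out. For C5a, 5 genes were called with all libraries and 3 to 4 with 1 left out. For IL1b against TNF the 5 became 3 to 5, with 3 without IL1b replicate 1. For EV-IL1b the 1 became 1 to 2, with 2 without EV-Control replicate 3. In single genes, 1657 of 1720 alternative values kept their side of the threshold without a called value changing sign, 36 lost a call, 26 gained one and 1 reversed. The 1657 include 39 that changed sign where neither value passed the test. The reversed value is the TNF response difference of F11R, 0.03 (adjusted p 0.831) with scaling by total counts against -0.26. That difference was also lost without EV-Control replicate 3, EV-TNF replicate 3 or TNF replicate 2 (adjusted p 0.0538 to 0.0551). The TNF response difference of TJP1 was lost with scaling by total counts (-0.12, adjusted p 0.203). The Epinephrine response difference of CGN was lost without Control replicate 2, Epinephrine replicate 3, EV-Control replicate 1 or EV-Epinephrine replicate 3 (adjusted p 0.0504 to 0.0709). The causes were not tested.

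Among all genes, the 8 called in EV-C5a became 3 in a fit of all 30 libraries, 3 in a fit of the 2 groups, 3 at a mean count of at least 50, 5 with scaling by total counts, 73 without a filter, and 2 to 175 with 1 library left out (175 without EV-Control replicate 3). The labels number the replicates 1 to 3 in each group. Samples with the same number did not deviate together (r -0.039 to 0.026), so the numbers were not used as pairs. With the replicate number as a block, 7 genes were called in TNF and 5 in IL1b, and no count of junction genes changed by over 1.5 times. Counts of 9 or fewer per library, as for JAM2, were too low to test.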

Other observations

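Genes tied to the control of tight junctions were read from a list of 41, of which 35 passed the filter in the direct and in the vesicle fit. In TNF 25 were higher and 4 lower (27.5% and 25.3% of all genes), or 17 and 12 with scaling by total counts (14.4% and 48.9% of all genes). In IL1b 7 were higher and 11 lower (24.0% and 22.6%), with 4 higher at a mean count of at least 50. In C5a 3 were higher and 12 lower (11.8% and 10.8%), and in Epinephrine 5 and 10 (13.5% and 11.8%). The 5 Epinephrine rises became 3 without Control replicate 2 or Epinephrine replicate 3 or in a fit of the 2 groups, and 8 without Epinephrine replicate 2. The 10 falls became 6 without Control replicate 3 or Epinephrine replicate 1. The C5a rises numbered 1 without C5a replicate 1, C5a replicate 2 or Control replicate 3. SNAI2, which encodes a repressor that can bind E-boxes, had a mean of 5.41 CPM in Control against 58.6 CPM in TNF (log2 difference 3.44, SE 0.11, adjusted p 9.48e-25 by edgeR). It stood at 20.5 CPM in Epinephrine (1.94, SE 0.117, adjusted p 5.35e-15) and 6.28 CPM in IL1b. MMP2, a matrix protease, fell from 44.4 CPM to 8.18 CPM in TNF (-2.43, adjusted p 4.07e-22), 15.7 in IL1b (-1.49, adjusted p 1.44e-16) and 21.9 in Epinephrine (-1.01, adjusted p 9.15e-12). KLF2, a factor of quiescent endothelium, stood at 196 CPM in Control, 71.1 in TNF (-1.45), 54.2 in IL1b (-1.84), 68.1 in C5a (-1.51) and 98.2 in Epinephrine (-0.99), with adjusted p of 2.07e-05 to 0.00358.

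In the vesicle arm SNAI2 was high in EV-Control, at 42.1 CPM against 5.41 CPM in Control (2.96, SE 0.128, adjusted p 3.98e-22 by edgeR). It was lower than EV-Control in EV-TNF (15.6 CPM, -1.43, adjusted p 3.71e-07), EV-IL1b (17.4 CPM, -1.27, adjusted p 1.56e-06) and EV-Epinephrine (13.7 CPM, -1.61, adjusted p 8.91e-08). SNAI1, its relative, was lower in the same 3 groups, at 15.5, 15.6 and 14.1 CPM against 28.9 CPM in EV-Control (-0.90, -0.90 and -1.03). These are the vesicle groups in which ESAM was called higher. In C5a, SNAI1 was lower than in Control (4.26 against 12.2 CPM, -1.51, adjusted p 8.6e-10 by edgeR), and its IL1b mean was 5.23 CPM. ESAM was also lower than Control in both of these groups. The SNAI1 mean was above Control in TNF (17.2 CPM) and EV-Control, where ESAM was lower. No relation between SNAI2, SNAI1 and ESAM was tested. SOX17, an endothelial factor, was higher in TNF than in Control (106 against 45.3 CPM, 1.23, adjusted p 2.78e-17 by edgeR). Against EV-Control, SOX17 was lower in EV-TNF (-0.52), EV-IL1b (-0.60) and EV-C5a (-0.43, adjusted p 0.0357). The EV-C5a value is the only call among the list in that group, and it was lost in a fit of the 2 groups (adjusted p 0.073) and without EV-C5a replicate 1, 2 or 3 or EV-Control replicate 1 or 2.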
